A study of Mus musculus with 8 samples.

Results

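The SOCS and PIM feedback genes of cytokine signalling were followed in donor T cells with and without STAT3. The set was fixed by gene name, with earlier results of these data known. It holds the SOCS family (Socs1, Socs2, Socs3, Socs4, Socs5, Socs6 and Socs7), its relative Cish, and the PIM kinases Pim1 and Pim2. These are 10 of the 25078 gene rows of the deposited tables, and all 10 passed the filter on low counts that kept 12428 genes for testing.

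The RNA came from donor T cells in the spleens of mice on day 6 after hematopoietic cell transplantation (HCT). T cells of C57BL/6 donors had been given, with T cell-depleted bone marrow of WT C57BL/6 donors, to irradiated WT BALB/c recipients. Every group shares this transplant, this recipient genotype and this time point. The donors were wild type (WT) or STAT3KO, that is Stat3 fl/fl with a Cre recombinase under Cd4 regulatory sequences, which act in CD4 and CD8 T cells alike because both pass through a thymic stage that expresses Cd4. Whether the WT donors carried the Cre is not given in the sources used here. CD4 and CD8 T cells of donor origin were sorted separately, which gives 4 groups of 2 libraries each, named WT CD4, WT CD8, STAT3KO CD4 and STAT3KO CD8. Each library pools lymphocytes of several recipients, so the p-values measure the spread between pools and not between single mice. That spread also holds any shift between the replicates that the groups share, because the main fit has no term for it. In such bulk libraries, fewer cells of a type and less RNA per cell cannot be told apart. The ages of the mice are not given in the sources used here.

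Cytokine receptors signal through JAK kinases and STAT transcription factors, and STAT factors switch on genes that turn the same signal down. SOCS1, SOCS3 and CISH are the best known of these brakes: SOCS1 and SOCS3 block JAK kinases directly, CISH and SOCS2 bind phosphorylated receptor chains, and all of them carry a SOCS box that recruits a ubiquitin ligase. PIM1 and PIM2 are serine/threonine kinases that, once STAT factors have induced them, favour survival and growth of lymphocytes. IL-6 and related cytokines act mainly through STAT3, and IL-2 and IL-7 mainly through STAT5, whose classical T cell targets include Cish and Socs2.

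The start-site windows of the members that the results turn on are shown first, because STAT dimers bind TTCNNNGAA, where N is any base. Windows from the RefSeq table used here were collected for 6 of the 10 members (Socs1, Socs3, Socs4, Cish, Pim1 and Pim2). None was collected for Socs2, Socs5, Socs6 and Socs7. Each line gives 180 bases on the strand of transcription in build GRCm38.p6, from 160 bases before the annotated start through the first 20 transcribed bases, with motif matches in capitals. The Pim1 line is the more upstream of its 2 annotated starts.
Socs3 (chr11:117969347-117969526, minus strand): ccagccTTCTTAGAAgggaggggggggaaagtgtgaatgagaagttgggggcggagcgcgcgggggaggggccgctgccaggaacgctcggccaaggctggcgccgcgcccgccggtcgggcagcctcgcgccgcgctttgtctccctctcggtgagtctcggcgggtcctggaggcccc
Socs1 (chr16:10785517-10785696, minus strand): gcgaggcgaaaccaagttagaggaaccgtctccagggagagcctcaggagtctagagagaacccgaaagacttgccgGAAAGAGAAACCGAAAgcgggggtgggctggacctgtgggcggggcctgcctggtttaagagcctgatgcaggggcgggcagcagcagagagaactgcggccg
Cish (chr9:107296499-107296678, plus strand): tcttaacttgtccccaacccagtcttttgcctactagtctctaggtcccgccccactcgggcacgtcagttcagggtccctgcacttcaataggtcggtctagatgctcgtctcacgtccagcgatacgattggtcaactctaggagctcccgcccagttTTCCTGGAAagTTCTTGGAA
Pim1 (chr17:29490625-29490804, plus strand): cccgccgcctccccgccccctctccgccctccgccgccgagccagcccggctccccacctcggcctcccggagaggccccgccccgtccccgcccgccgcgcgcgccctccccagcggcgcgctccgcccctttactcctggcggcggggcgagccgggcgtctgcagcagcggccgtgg
Pim2 (chrX:7878146-7878325, plus strand): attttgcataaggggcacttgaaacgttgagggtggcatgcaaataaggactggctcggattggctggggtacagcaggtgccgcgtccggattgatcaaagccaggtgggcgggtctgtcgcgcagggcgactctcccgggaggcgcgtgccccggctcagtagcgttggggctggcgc

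Windows of 300 bases (250 before and 50 from the start) were searched on both strands for TTCNNNGAA, which reads the same on either strand, and for the same palindrome with a spacer of 4 bases in place of 3. With the first transcribed base counted as 0, the Socs3 window held TTCTTAGAA from -154 to -146. The Cish window held TTCCTGGAA from 0 to 8 and TTCTTGGAA from 11 to 19. No match of TTCNNNGAA lay in the windows of Socs1, Socs4, Pim1 and Pim2, and no searched window of a member held the wider palindrome. Among 32817 windows of the same length in the table, 8.29% held TTCNNNGAA, 0.457% held at least 2 such matches, and 6.94% held the wider one. The Socs1 window held 2 overlapping matches of an interferon-type motif, GAAA repeated after a gap of 2 bases, which was added after the sequences had been seen, at -83 to -74 and at -77 to -68, and 3.43% of all windows held that motif. A match is a description of the letters and not a binding site.

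The libraries held between 20171396 and 23282757 counts, and each member had at least 64 counts in every library. Stat3 checked the labels: the WT libraries held 428 to 436 CPM (counts relative to library size, adjusted by TMM, the trimmed mean of M values) in both cell types, and the STAT3KO libraries held 120 to 143 CPM. The coreceptor genes matched the sorted cell types, and the summed T cell markers (7 genes) lay between 4632 and 5329 CPM in all 8 libraries. The replicate numbers stood apart in all 4 groups. The heat shock gene Hspa1a had 276 to 1031 CPM in the libraries numbered 1 and 0.126 to 3.11 CPM in those numbered 2, and summed macrophage markers (6 of 6 with counts) were at 18.4 to 52.6 CPM in the former and 58.4 to 121 CPM in the latter. Each group holds 1 library of either number, so comparisons between groups are also given below within each number. Where 1 library is left out below, its group keeps a single number and is set against groups that hold both. Of the B cell markers, Ms4a1 and Cd79a were at or under 0.348 CPM in every library, and Cd79b lay between 0.892 and 2.46 CPM in CD4 and between 11.9 and 12.8 CPM in CD8 libraries.

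**Figure D1:**
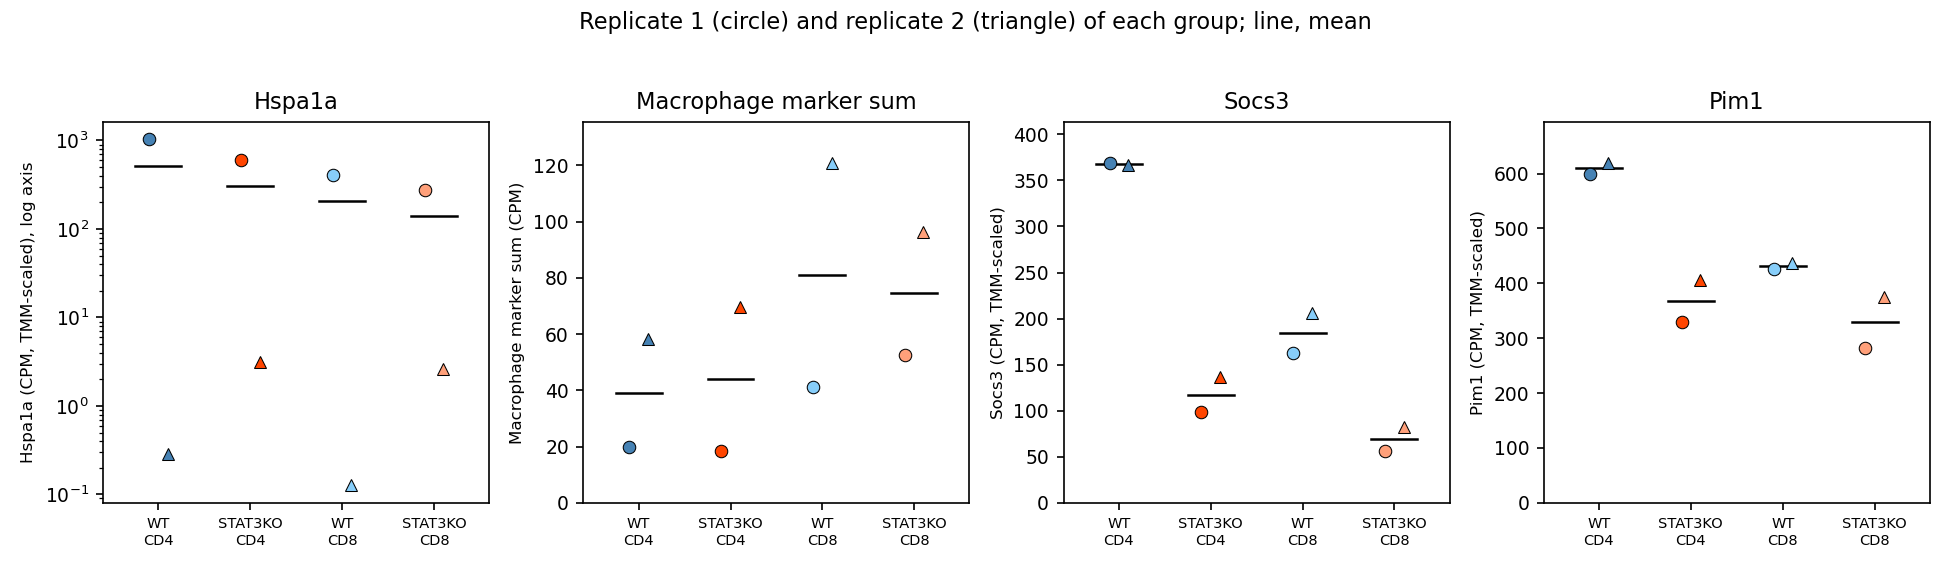
Level of Hspa1a (log axis), the summed macrophage markers, Socs3 and Pim1 in each library, with circles for replicate 1, triangles for replicate 2 and a line for the group mean. Hspa1a fell into 276 to 1031 CPM (circles) and 0.126 to 3.11 CPM (triangles), while Socs3 lay at 369 and 367 CPM in WT CD4 and at 98.6 and 136 CPM in the STAT3KO CD4 libraries.

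Levels of different members were compared per exon length, on the deposited RPKM (reads per exon length and library size). Pim1 was the most abundant member in every group, from 119 ± 22.1 RPKM in STAT3KO CD8 to 225 ± 7.77 RPKM in WT CD4 (SD, n = 2). By group mean Socs3 came second in every group, from 135 ± 1.01 RPKM in WT CD4 to 25.0 ± 6.44 RPKM in STAT3KO CD8 (SD, n = 2). In the WT CD4 libraries, Pim2 (63.4 and 74.7 RPKM), Socs1 (29.4 and 32.6 RPKM) and Socs4 (22.2 and 23.5 RPKM) followed without overlapping each other. Socs7 (8.27 and 9.14 RPKM) and Cish (7.21 and 9.77 RPKM) overlapped, and Socs6, Socs5 and Socs2 were lowest at 3.90, 2.30 and 1.85 RPKM on average. In the other groups the order shifted in places. Socs4 stood above Socs1 in all 6 libraries outside WT CD4, in STAT3KO CD4 libraries the range of Socs3 (35.8 to 48.8 RPKM) took in that of Pim2 (39.0 to 41.2 RPKM), and in STAT3KO CD8 libraries the ranges of Socs3 (20.4 to 29.5 RPKM), Socs4 (20.3 to 22.0 RPKM) and Pim2 (20.6 to 21.1 RPKM) overlapped.

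**Figure D2:**
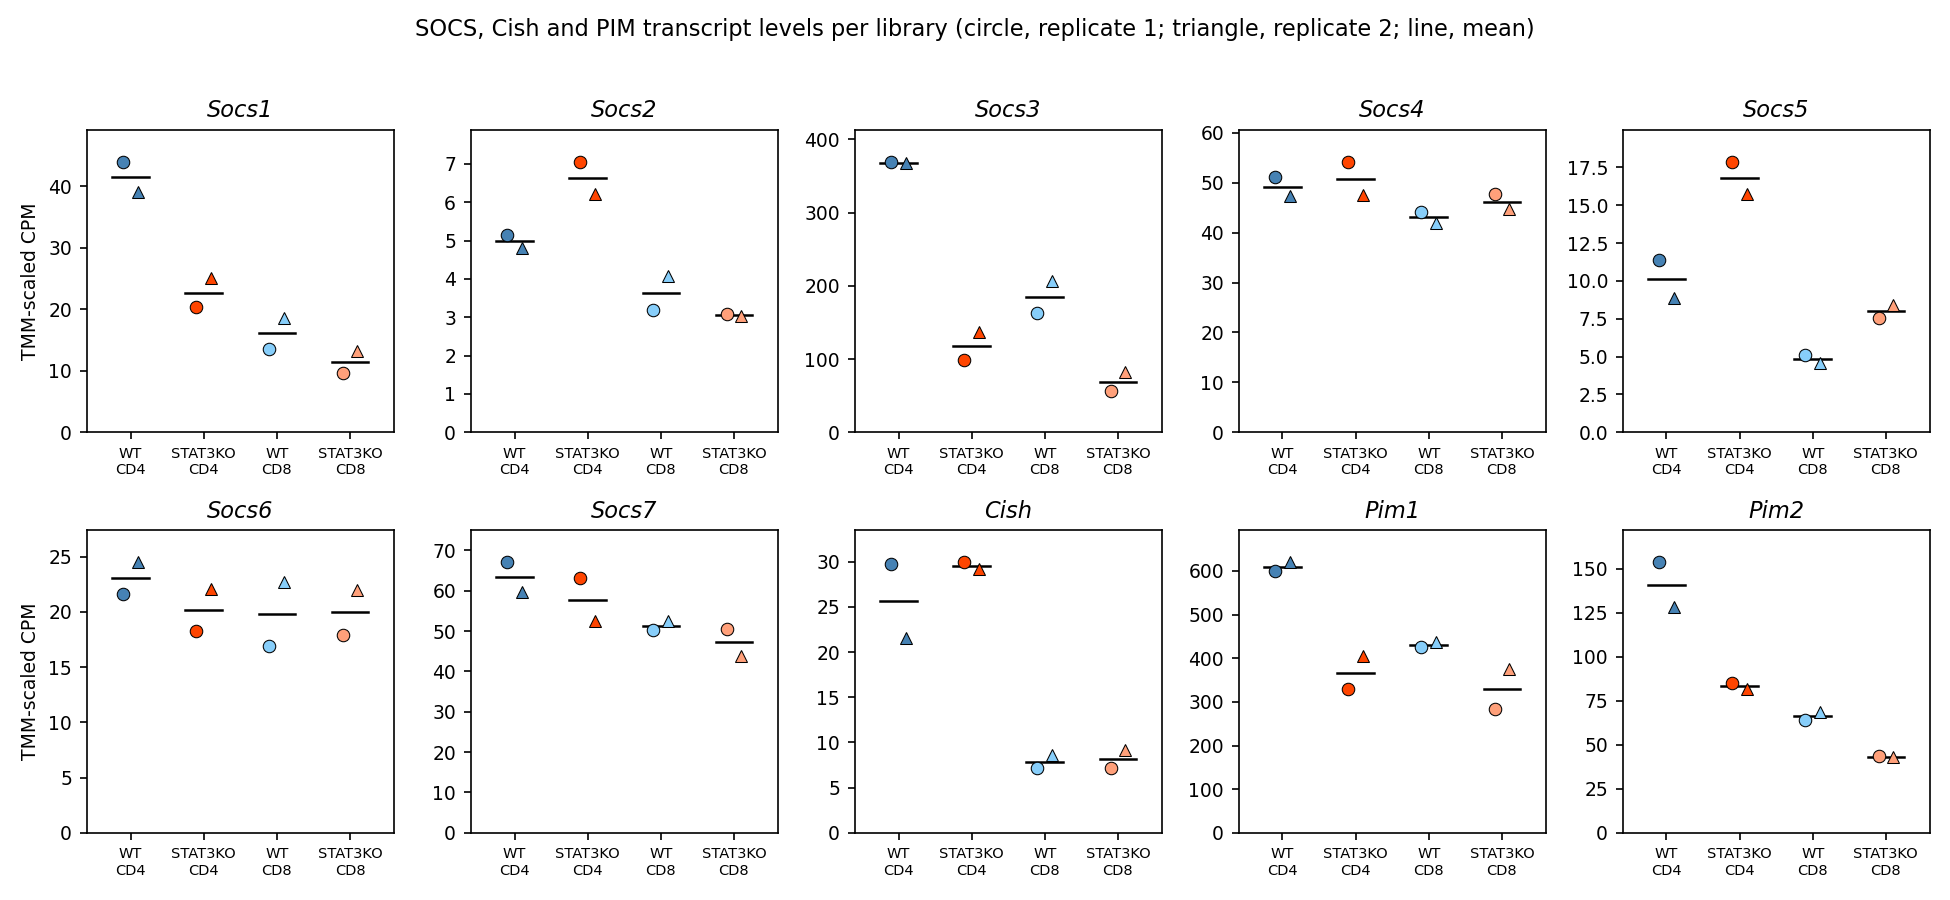
Transcript level of the 10 members in each library, in TMM-scaled CPM on axes that start at 0, by group, with circles for replicate 1, triangles for replicate 2 and a line for the group mean. Socs3, Pim1, Pim2 and Socs1 lay lower in STAT3KO than in WT libraries of the same cell type, Socs5 lay higher, and Cish separated by cell type.

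The first comparison asked which of the feedback genes differed between STAT3KO and WT CD4 T cells. Socs3, Socs1, Pim1 and Pim2 were lower in STAT3KO than in WT CD4 T cells, and Socs5 was higher. Socs3 fell to 31.9% of the WT level, and Socs1, Pim1 and Pim2 fell to 54.7%, 60.2% and 59.1%. Thus 5 of 10 members passed the edgeR quasi-likelihood test (Benjamini-Hochberg adjusted p under 0.05, over all genes), 1 of them higher and 4 lower, where 11.6% of all genes tested were called, 6.54% higher and 5.08% lower. The groups did not overlap for 6 of 10 members, as for 53.5% of all genes. The median log2 fold change was -0.16 over the members and 0.02 over all genes tested. Leaving out 1 CD4 library left 3 members called (without WT CD4 replicate 1), 2 (without WT CD4 replicate 2 or without STAT3KO CD4 replicate 1) or 1 (without STAT3KO CD4 replicate 2).

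Socs3 (chromosome 11, 117966087 to 117969366, mm10, minus strand), the brake on IL-6 family receptors that share gp130, had 369 and 367 CPM in WT CD4 and 98.6 and 136 CPM in STAT3KO CD4 libraries. Both STAT3KO libraries thus lay far below both WT libraries, which hardly differed from each other. The log2 fold change was -1.65 (SE 0.23, edgeR adjusted p 0.00474), and it was -1.90 between the libraries numbered 1 and -1.43 between those numbered 2. Socs3 kept its call under all 17 alternatives, between -1.90 and -1.43. Socs1 (chromosome 16, 10783809 to 10785536, minus strand), the main brake on interferon signalling, had 44.0 and 39.1 CPM in WT CD4 and 20.3 and 25.0 CPM in STAT3KO CD4 libraries. The genotypes did not overlap, and the log2 fold change was -0.87 (SE 0.21, edgeR adjusted p 0.0347). Within the replicate numbers it was -1.11 and -0.64. With the replicate number as a block, that is a term in the fit, the adjusted p of Socs1 was 0.0016. Leaving out any of the 4 CD4 libraries ended the call of Socs1, with adjusted p between 0.0851 and 0.195 and log2 fold changes between -1.03 and -0.73.

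Pim1 (chromosome 17, 29490785 to 29496110, plus strand) had 600 and 620 CPM in WT CD4 and 329 and 405 CPM in STAT3KO CD4 libraries. The higher STAT3KO library stayed well under the lower WT library, and the log2 fold change was -0.73 (SE 0.16, edgeR adjusted p 0.0255), with -0.87 and -0.61 within the replicate numbers. Pim2 (chromosome X, 7878306 to 7883432, plus strand), whose protein like PIM1 is active once it is made, had 154 and 128 CPM in WT CD4 and 85.1 and 81.7 CPM in STAT3KO CD4 libraries. Both STAT3KO libraries lay below both WT libraries, with a log2 fold change of -0.76 (SE 0.11, edgeR adjusted p 0.00636) and -0.85 and -0.65 within the replicate numbers. Pim1 and Pim2 kept their calls with the replicate number as a block, each at a smaller adjusted p than in the main fit. Leaving out any of the 4 CD4 libraries ended the call of Pim1, with adjusted p between 0.0578 and 0.16 and log2 fold changes between -0.89 and -0.59, and without STAT3KO CD4 replicate 2 the adjusted p of Pim2 was 0.0604 at a log2 fold change of -0.73. Exons of Pim1 share 14.5% of their bases with the antisense gene Gm26885 in GENCODE M21. The exons of Pim1 cover 3362 bases there and 2714 bases in the model that was counted. Whether counting used the strand is not given in the sources used here, so reads of Pim1 and Gm26885 may be mixed.

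Socs5 was the member that rose. Its gene (chromosome 17, 87107679 to 87137588, plus strand) encodes a SOCS protein with a long amino-terminal region that has been linked to epidermal growth factor receptor and IL-4 signalling. Its WT CD4 libraries held 11.4 and 8.88 CPM and its STAT3KO CD4 libraries 17.9 and 15.7 CPM. Both STAT3KO libraries were above both WT libraries, and the log2 fold change was 0.73 (SE 0.18, edgeR adjusted p 0.0362), with 0.65 and 0.82 within the replicate numbers. With the replicate number as a block, the adjusted p of Socs5 was 0.00447. The call of Socs5 was lost without WT CD4 replicate 2 (0.56, adjusted p 0.17), without STAT3KO CD4 replicate 1 (0.63, adjusted p 0.198) and STAT3KO CD4 replicate 2 (0.82, adjusted p 0.109). It was also lost, with the value hardly moved, without WT CD8 replicate 1 (0.73, adjusted p 0.0505), without STAT3KO CD8 replicate 1 (0.72, adjusted p 0.0636) and without STAT3KO CD8 replicate 2 (0.73, adjusted p 0.0585), as well as with the 4 CD4 libraries alone in the fit (0.71, adjusted p 0.0761) and with limma on log2(RPKM + 0.1) (0.69, adjusted p 0.0585).

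The STAT5-linked members Cish and Socs2 were not called. Cish had 29.7 and 21.5 CPM in WT CD4 and 29.9 and 29.2 CPM in STAT3KO CD4 libraries. The upper WT library sat at the level of the STAT3KO libraries, and the log2 fold change of Cish was 0.21, with a 95% interval from -0.23 to 0.65 and an edgeR adjusted p of 0.545. Socs2 had 5.14 and 4.82 CPM in WT CD4 and 7.05 and 6.22 CPM in STAT3KO CD4 libraries. Both STAT3KO values of Socs2 were above both WT values, but the log2 fold change of 0.41 (95% interval -0.07 to 0.90) did not pass the test (edgeR adjusted p 0.25). Socs4 (47.4 to 51.1 CPM in WT, 47.5 to 54.2 in STAT3KO), Socs6 (21.7 to 24.5 and 18.3 to 22.1 CPM) and Socs7 (59.6 to 67.0 and 52.4 to 63.1 CPM), whose proteins are linked more to growth factor receptors than to cytokine receptors, overlapped between genotypes. Their log2 fold changes were 0.05, -0.19 and -0.13, and the widest of their 95% intervals, that of Socs6, ran from -0.63 to 0.24.

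**Figure D3:**
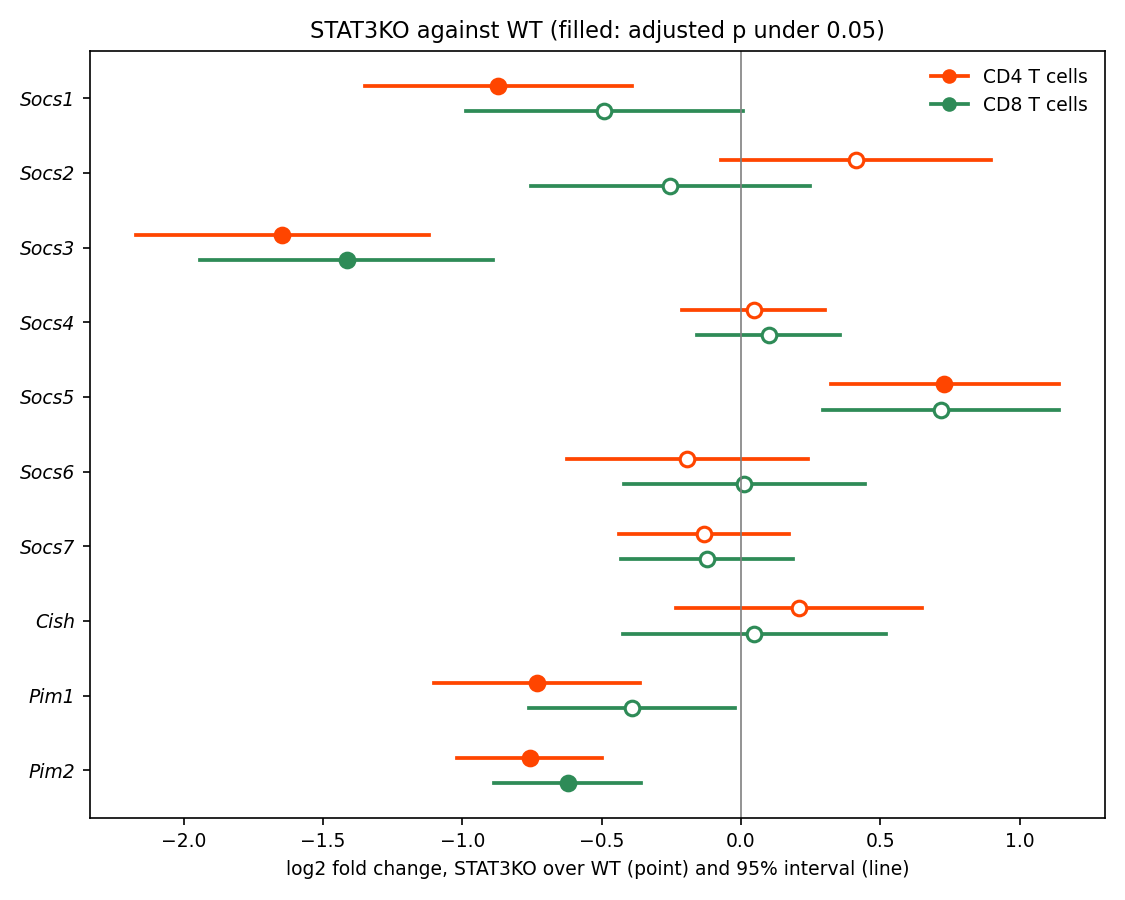
Log2 fold change of each member between STAT3KO and WT (point) with its 95% interval (line) in CD4 and CD8 T cells, filled where the edgeR adjusted p was under 0.05. Socs3 stood lowest in both cell types (-1.65 and -1.41), Socs5 stood at 0.73 and 0.72, and Socs2 lay on opposite sides of 0 (0.41 and -0.25).

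The same comparison in CD8 T cells asked whether the feedback genes differed between the genotypes there as well. Socs3 and Pim2 were lower in STAT3KO CD8 T cells, at 37.5% and 65.0% of the WT level. They were the 2 of 10 members called (0 higher, 2 lower), where 2.07% of all genes were called in either direction, 1.34% higher and 0.732% lower. The groups did not overlap for 7 of 10 members, as for 49.7% of all genes, and the median log2 fold change was -0.19 over the members and -0.01 over all genes. The count of members called was 0 when any 1 of the 4 CD8 libraries was left out or without STAT3KO CD4 replicate 1, and it was 1 when replicate 2 of STAT3KO CD4 was left out.

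Socs3 had 163 and 206 CPM in WT CD8 and 56.0 and 82.4 CPM in STAT3KO CD8 libraries. Its STAT3KO libraries were both below its WT libraries, and the log2 fold change was -1.41 (SE 0.23, edgeR adjusted p 0.0292), with -1.54 and -1.32 within the replicate numbers. Pim2 had 64.3 and 68.9 CPM in WT CD8 and 43.5 and 43.0 CPM in STAT3KO CD8 libraries. Here the replicates lay close together and the genotypes apart, with a log2 fold change of -0.62 (SE 0.11, edgeR adjusted p 0.0414) and -0.56 and -0.68 within the replicate numbers. Both calls were kept with the replicate number as a block, each at a smaller adjusted p than in the main fit (0.000156 for Socs3). With the 4 CD8 libraries alone in the fit neither was called (adjusted p 0.0763 for Socs3 and 0.0839 for Pim2). The calls of both were lost without WT CD8 replicate 1 (-1.57 and -0.67), WT CD8 replicate 2 (-1.23 and -0.57), STAT3KO CD8 replicate 1 (-1.16 and -0.63), STAT3KO CD8 replicate 2 (-1.72 and -0.61) and STAT3KO CD4 replicate 1 (-1.41 and -0.62), and that of Pim2 also without STAT3KO CD4 replicate 2 (-0.62). Their adjusted p then lay between 0.051 and 0.176 for Socs3 and between 0.0913 and 0.263 for Pim2.

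The other members that were called in CD4 T cells had values on the same side of 0 in CD8 T cells without passing the quasi-likelihood test. With the replicate number as a block, Socs5 (0.73, adjusted p 0.0153) and Pim1 (-0.40, adjusted p 0.023) were called in CD8 T cells as well, and the edgeR likelihood-ratio test called Socs5 (adjusted p 0.0461). Socs5 had 5.10 and 4.59 CPM in WT CD8 and 7.52 and 8.43 CPM in STAT3KO CD8 libraries. Its groups did not overlap, and its log2 fold change was 0.72 (95% interval 0.30 to 1.14, edgeR adjusted p 0.0909). Socs1 had 13.5 and 18.7 CPM in WT CD8 and 9.69 and 13.2 CPM in STAT3KO CD8 libraries. Its lower WT library lay just above its upper STAT3KO library, and its log2 fold change was -0.49 (95% interval -0.99 to 0.01, edgeR adjusted p 0.264). Pim1 had 425 and 437 CPM in WT CD8 and 283 and 375 CPM in STAT3KO CD8 libraries. The STAT3KO libraries of Pim1 were both lower but differed from each other more than the WT libraries did, and its log2 fold change was -0.39 (95% interval -0.76 to -0.02, edgeR adjusted p 0.232).

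Cish had 7.13 and 8.59 CPM in WT CD8 and 7.14 and 9.11 CPM in STAT3KO CD8 libraries, so that the genotypes overlapped (log2 fold change 0.05, 95% interval -0.42 to 0.52). Socs2 had 3.20 and 4.08 CPM in WT CD8 and 3.09 and 3.02 CPM in STAT3KO CD8 libraries. Both STAT3KO values lay slightly below the WT values (log2 fold change -0.25, edgeR adjusted p 0.591), whereas in CD4 T cells they lay above. The log2 fold changes of Socs4, Socs6 and Socs7 were 0.10, 0.01 and -0.12, and that of Socs6 was -0.03 when counts were scaled by library totals.

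Whether the STAT3KO effect differed between the cell types was tested as an interaction. The edgeR quasi-likelihood test called 0 of the 10 members, 0 had a raw p below 0.05, and 0 were called by DESeq2, the likelihood-ratio test or limma. Over all genes tested, 0% were called, 982 had a raw p below 0.05, and DESeq2 called 190 genes. For Socs3 the effect in CD8 minus that in CD4 T cells was 0.23 on the log2 scale (95% interval -0.49 to 0.96), for Pim2 it was 0.14 (-0.23 to 0.50), for Pim1 0.34 (-0.18 to 0.86), for Socs1 0.38 (-0.31 to 1.07) and for Socs5 -0.01 (-0.62 to 0.60). These intervals leave room for differences in either direction. Socs2 had the widest difference, at -0.67 (95% interval -1.36 to 0.03, unadjusted p 0.058, edgeR adjusted p 0.654).

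As a family, SOCS transcripts were composed differently in the 2 genotypes. The RPKM of Socs1 to Socs7 and Cish added up to 218 and 211 in the CD4 libraries of WT donors against 104 and 114 in those of STAT3KO donors, and to 105 and 124 in the CD8 libraries of WT donors against 64.7 and 74.8 in those of STAT3KO donors. Socs3 made up 61.8% and 64.4% of that sum in WT CD4 but 34.5% and 42.6% in STAT3KO CD4 libraries, and 57.0% and 60.3% in WT CD8 but 31.6% and 39.5% in STAT3KO CD8 libraries. Every STAT3KO library thus had a smaller Socs3 share than every WT library. Without Socs3, the family added up to 83.1 and 75.1 RPKM in WT CD4 against 67.9 and 65.6 in STAT3KO CD4, and to 45.0 and 49.1 RPKM in WT CD8 against 44.3 and 45.3 in STAT3KO CD8 libraries. In CD8 T cells the remainder overlapped between genotypes, and Socs4 made up 15.5% and 19.6% of the sum in WT and 27.1% and 34.0% in STAT3KO CD8 libraries, with its own level between 19.2 and 22.0 RPKM in all 4.

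The PIM kinases, with Pim3 added from outside the set, summed to 316 and 315 RPKM in WT CD4 against 174 and 202 RPKM in STAT3KO CD4 libraries, and to 205 and 207 RPKM in WT CD8 against 135 and 167 RPKM in STAT3KO CD8 libraries. Pim1 accounted for 68.7% to 80.6% of the sum in all 8 libraries. Pim3 itself had 54.6 and 51.3 CPM in WT CD4 and 32.8 and 42.5 CPM in STAT3KO CD4 libraries, and 39.9 and 37.5 CPM in WT CD8 and 25.2 and 29.5 CPM in STAT3KO CD8 libraries. The genotypes of Pim3 did not overlap in either cell type, but its log2 fold changes of -0.49 and -0.50 did not pass the test (edgeR adjusted p 0.0727 and 0.127).

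**Figure D4:**
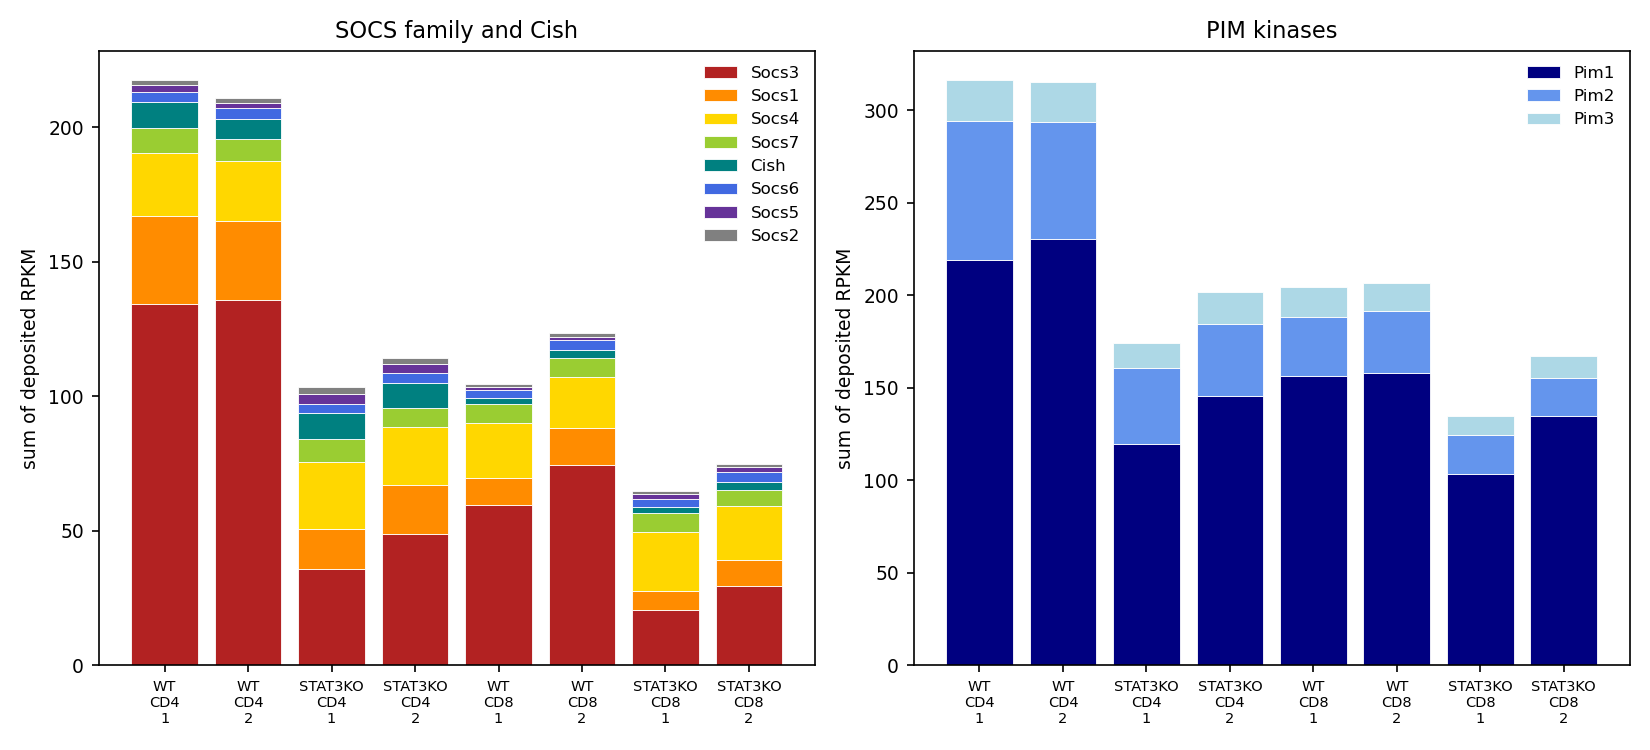
Deposited RPKM of the SOCS family with Cish (left) and of the PIM kinases (right), stacked by gene for each library on axes that start at 0. The Socs3 segment fell from 134 and 136 RPKM in WT CD4 to 35.8 and 48.8 RPKM in STAT3KO CD4 libraries, and Pim1 was the largest PIM segment in all 8 libraries.

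The sorted cell types were then compared within each genotype, to see how CD4 and CD8 T cells differed in their feedback genes. In WT cells, Cish, Socs1, Pim2, Socs5 and Socs3 were lower in CD8 than in CD4 T cells. They were the 5 of 10 members called (0 higher, 5 lower), where 23.8% of all genes were called, 12.2% higher and 11.6% lower. In STAT3KO cells, Cish, Socs2, Socs5, Socs1 and Pim2 were lower in CD8 T cells, again 5 of 10 members (0 higher, 5 lower), where 12.5% of all genes were called, 5.84% higher and 6.67% lower. All 10 members had a log2 fold change under 0 in both genotypes, except that leaving out STAT3KO CD4 replicate 2 or STAT3KO CD8 replicate 1 in turn put Socs6 (0.13 and 0.12) and Pim1 (0.00 and 0.02) at or above 0 in STAT3KO cells. The count called in STAT3KO cells was 2 without STAT3KO CD4 replicate 1 or STAT3KO CD8 replicate 1 and 3 without STAT3KO CD4 replicate 2. The median over the members was -0.75 in WT and -0.86 in STAT3KO, against 0.00 over all genes in both.

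Cish had the widest gap between the cell types. Its 29.7 and 21.5 CPM in WT CD4 stood against 7.13 and 8.59 CPM in WT CD8 libraries, and its 29.9 and 29.2 CPM in STAT3KO CD4 against 7.14 and 9.11 CPM in STAT3KO CD8 libraries. Every CD4 library was above every CD8 library, with log2 fold changes of -1.70 (SE 0.20, edgeR adjusted p 0.00096) in WT and -1.86 (SE 0.20, edgeR adjusted p 0.00197) in STAT3KO cells. In GENCODE M21, exons of Cish (chromosome 9, 107296659 to 107302784, plus strand) share 7.46% of their bases with the antisense gene Gm17041. They share 4.07% with the pseudogene Gm17040 on the opposite strand. The exons of Cish cover 6419 bases there and 3014 bases in the model that was counted. Pim2 and Socs5 likewise separated the cell types in both genotypes, at -1.08 and -0.95 for Pim2 (edgeR adjusted p 0.000593 and 0.00269) and at -1.06 and -1.07 for Socs5 (edgeR adjusted p 0.00497 and 0.00896). Without STAT3KO CD4 replicate 1 or STAT3KO CD8 replicate 1 the call of Socs5 in STAT3KO cells was lost (adjusted p 0.0736 and 0.0738).

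Socs1 differed by -1.37 on the log2 scale in WT (SE 0.21, edgeR adjusted p 0.00299) and by -0.99 in STAT3KO cells (SE 0.21, edgeR adjusted p 0.0242). The latter value of Socs1 was not called without STAT3KO CD4 replicate 1 (-1.13, adjusted p 0.0657), without STAT3KO CD4 replicate 2 (-0.83, adjusted p 0.131) or without STAT3KO CD8 replicate 1 (-0.79, adjusted p 0.136). Socs3 differed by -0.998 in WT (SE 0.22, edgeR adjusted p 0.0154) and by -0.76 in STAT3KO cells (SE 0.22, edgeR adjusted p 0.0659). Without WT CD8 replicate 1 the WT value was -0.84 with an adjusted p of 0.0976, whereas the STAT3KO value was called by DESeq2 (adjusted p 0.00558), by the likelihood-ratio test (0.0151), without a filter (0.0193) and with the replicate block (0.00108). Socs2 differed by -0.45 in WT (SE 0.21, edgeR adjusted p 0.17) and by -1.12 in STAT3KO cells (SE 0.21, edgeR adjusted p 0.0152), and the latter call was lost when any 1 of the 4 STAT3KO libraries was left out (-1.21 to -1.02, adjusted p 0.0604 to 0.107). Pim1 differed by -0.50 in WT (edgeR adjusted p 0.057) and -0.16 in STAT3KO cells. Its WT difference lay close to the threshold and was called by DESeq2 (adjusted p 0.0111), without a filter (0.0321), with the replicate block (0.00282), by limma on log2(RPKM + 1) and log2(RPKM + 0.1) (0.0488 and 0.048) and without STAT3KO CD8 replicate 1 or 2 (0.0341 and 0.0399). Socs7 differed by -0.30 and -0.29 and was called in both genotypes only with the replicate block (adjusted p 0.0315 and 0.0482), Socs4 by -0.19 and -0.14, and Socs6 by -0.22 and -0.02. The comparisons of genotypes and of cell types share libraries, so their values are given side by side and not related to each other. Whether the cell type difference itself changed with genotype is the interaction above, in which no member was called.

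**Figure D5:**
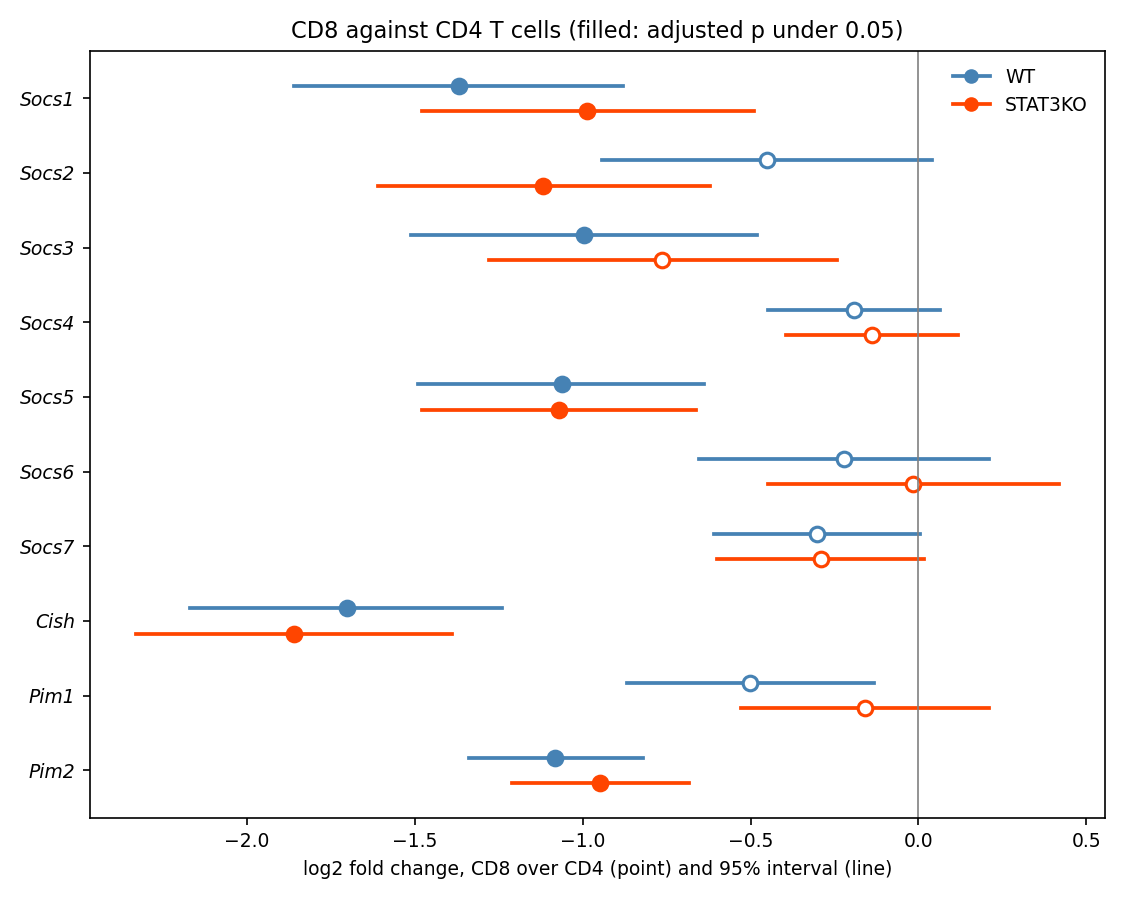
Log2 fold change of each member between CD8 and CD4 T cells (point) with its 95% interval (line) in WT and STAT3KO cells, filled where the edgeR adjusted p was under 0.05. All 20 points lay under 0, with Cish lowest at -1.70 and -1.86 and Socs6 nearest to 0 in STAT3KO cells at -0.02.

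Across the 8 libraries the members fell into patterns, described here by Pearson correlations of log2 CPM with no test, since the libraries share genotype, cell type and number. Socs3 ran with Pim1 (r = 0.97) and Pim2 (r = 0.87), and Socs1 with Pim2 (r = 0.96). Cish ran with Socs2 (r = 0.92) and Socs5 (r = 0.86), while Socs3 and Socs5 showed little relation (r = -0.08). Among 8757 genes whose mean log2 CPM reached 3, the patterns most like that of Socs3 were those of Mri1, Klf7 and Tent5c (r = 0.988, 0.985 and 0.981), and 215 genes had an r over 0.9 with it. Tent5c was also next to Pim1 (r = 0.975), after Dusp16 (r = 0.981) and before Rab39b (r = 0.974). The nearest patterns to Pim2 were those of Man2a2, Fam43a and Bcl6 (r = 0.993, 0.993 and 0.990), and to Socs1 those of Lcp2, Lpp and Igf1r (r = 0.994, 0.994 and 0.992). The nearest pattern to Socs5 was that of Slc9a7 (r = 0.985).

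The genes around the members in the pathway were counted on lists, to be read against the shares of all genes called in CD4 (6.54% higher and 5.08% lower) and in CD8 T cells (1.34% higher and 0.732% lower). With lists of 6 to 20 genes, 1 gene is already more than such a share in CD8 T cells, so the counts are descriptions. Of 11 JAK kinases and STAT factors, 3 were lower (Stat3, Stat5a and Jak3) in STAT3KO CD4 T cells, and 1 was lower (Stat3) in STAT3KO CD8 T cells. Stat5a, which acts downstream of IL-2 and IL-7 receptors, had 185 and 209 CPM in WT CD4 and 81.3 and 77.3 CPM in STAT3KO CD4 libraries, without overlap (log2 fold change -1.32, SE 0.10, edgeR adjusted p 0.000806). Stat3 and Stat5a are neighbours on opposite strands that share 72 exon bases, 0.756% of those of Stat3. Jak3, the kinase of the common gamma chain, had 272 and 195 CPM in WT CD4 and 137 and 109 CPM in the STAT3KO CD4 ones (log2 fold change -0.93, SE 0.20, edgeR adjusted p 0.0266). Jak3 lost its call without WT CD4 replicate 1 (-0.67), STAT3KO CD4 replicate 1 (-1.10), STAT3KO CD4 replicate 2 (-0.77) or STAT3KO CD8 replicate 1 (-0.94).

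Of 20 cytokine receptor chains, 3 were higher and 5 lower in STAT3KO CD4 T cells, and 1 was higher and 0 lower in STAT3KO CD8 T cells. Il23r, the IL-23 receptor chain, had 5.84 and 8.27 CPM in WT CD4 and 0.350 and 0.366 CPM in the STAT3KO CD4 ones (log2 fold change -4.28, SE 0.52, edgeR adjusted p 0.0031). Few reads lay behind the STAT3KO CD4 values, and over the 17 alternatives the log2 fold change of Il23r ran from -4.51 to -1.74. Il6ra (-1.25) and Il4ra (-1.07) fell as well, and Il10ra, the ligand-binding chain of the IL-10 receptor, was higher in CD4 (1.62) and CD8 (0.80) T cells. Il23r (-1.75), Il4ra (-0.75) and Il6ra (-0.50) were under 0 in CD8 T cells too, without a call (edgeR adjusted p 0.0811, 0.0654 and 0.452). The CD4 calls of Il23r and Il10ra were kept under all 17 alternatives. That of Il6ra was lost in 6, among them the removal of any 1 CD4 library (-1.29 to -1.22), that of Il4ra in 2 (without STAT3KO CD4 replicate 1 or 2), and the CD8 call of Il10ra (adjusted p 0.0457) in 9, among them the removal of any 1 CD8 library (0.66 to 0.92). Of 6 measured parts of the ubiquitin ligase that binds the SOCS box, 0 were called in either cell type, and the smallest p-values belonged to Eloc (0.16) and Rnf7 (-0.23) in CD4 and to Eloc (0.37) and Cul5 (0.28) in CD8 T cells, all given as log2 fold changes.

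Among 14 other inhibitors of cytokine signalling, 2 were lower in STAT3KO CD4 T cells, the phosphatase gene Ptpn1 (-0.75) and the adaptor gene Sh2b3 (-0.65), and 1 was higher in STAT3KO CD8 T cells, the interferon-induced Usp18 (1.39). Ptpn1 lost its call in 2 of 17 alternatives and Sh2b3 in 3, each time with a CD4 library left out. The call of Usp18 (adjusted p 0.0452) was lost in 10 of 17, among them the removal of any 1 CD8 library (1.16 to 1.66). Of 8 genes of Pim3 and PIM substrates, 1 was called in each cell type, and it was Map3k5, a stress kinase gene, which was lower in both (log2 fold change -1.15 in CD4 and -0.74 in CD8 T cells). Its call was kept under all 17 alternatives in CD4 but lost in 8 of 17 in CD8 T cells, among them the removal of any 1 CD8 library (-0.84 to -0.62). Immediate early and stress genes, which respond to stimulation and to handling of cells, had values under 0 for 14 of 15 in CD4 and 15 of 15 in CD8 T cells, with medians of -0.54 and -0.36 on the log2 scale and 0 called. The 13 of them other than Hspa1a and Hspa1b summed, for replicates 1 and 2 in turn, to 7248 and 3565 CPM in WT CD4 against 4651 and 3194 CPM in STAT3KO CD4 libraries, and to 3351 and 2163 CPM in WT CD8 against 2337 and 2024 CPM in STAT3KO CD8 libraries. The ranges of the genotypes overlapped, but within each replicate number the STAT3KO sum was the lower in both cell types, as were Socs3 and Pim1. Not every gene followed that sum. Among the libraries numbered 2, Fosb, Dusp1, Atf3 and Nr4a1 were higher in STAT3KO than in WT in both cell types, as were Hspa1a and Hspa1b. The part of the immediate early and stress genes in the lower Socs3 and Pim1 values was not tested.

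Summed markers of other cells were set beside the members. Macrophage markers stood at 19.8 and 58.4 CPM in WT CD4 and 18.4 and 69.8 CPM in STAT3KO CD4 libraries, and at 41.3 and 121 CPM in WT CD8 and 52.6 and 96.3 CPM in STAT3KO CD8 libraries, so the genotypes overlapped in both cell types. Socs3 was lower in STAT3KO than in WT within either replicate number in both cell types, by the values given above. The B cell list was higher in STAT3KO CD4 (149 and 170 CPM) than in WT CD4 libraries (107 and 96.1 CPM), and Cd22 alone accounted for 94.6 to 167 CPM of it, while Ms4a1 and Cd79a were near 0 as stated. Cd79b was at 0.892 and 1.27 CPM in WT CD4 and 2.06 and 2.46 CPM in STAT3KO CD4 libraries, the direction of the list. The NK cell list was also higher in STAT3KO CD4 (411 and 483 CPM) than in WT CD4 libraries (263 in both), and lower in STAT3KO CD8 (632 and 683 CPM) than in WT CD8 libraries (708 and 741 CPM). Most of that sum was Nkg7, a granule gene that cytotoxic T cells express too, while Ncr1 was at or under 0.246 CPM and Klra8 at 0 in every library. Eomes went against the list in CD8 T cells, at 45.4 and 39.2 CPM in WT and 69.0 and 47.0 CPM in STAT3KO libraries. Klrb1c overlapped between genotypes in CD4 T cells (16.1 and 17.7 CPM in WT, 14.9 and 18.6 CPM in STAT3KO). Eomes in CD4 and Klrb1c in CD8 T cells went with the list. The dendritic cell list stood at 274 and 240 CPM in WT CD8 against 208 and 161 CPM in STAT3KO CD8 libraries, nearly all of it Itgax, with Flt3 and Xcr1 at or under 0.0859 CPM and Siglech at 0 in every library. Neutrophil markers were at 7.56 and 16.6 CPM in WT CD8 and 4.97 and 5.74 CPM in STAT3KO CD8 libraries. The part of these lists in the member values was not tested.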

How the data were processed

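Donor T cell RNA was measured in 8 libraries of 4 groups, as the labels give them by cell type, genotype and title. The growth and treatment fields describe an adipogenic cell line and were not used, and the library kits named in the labels and in the study's methods differ. The authors aligned single-end reads to mm10 with STAR, counted reads per RefSeq gene with HTSeq, and deposited raw counts and RPKM for 25078 rows. The deposited RPKM rest on library sizes 0.989 to 1.05 times the column totals of counts.

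Counts were filtered by filterByExpr (minimum count 10, by group, 12428 genes), scaled by TMM and fitted in edgeR 4.0.16 (R 4.3.3) with a mean per group over all 8 libraries and no covariate. The quasi-likelihood test was two-sided with Benjamini-Hochberg adjustment over all genes tested, and 95% intervals came from its SE with 7.69 degrees of freedom. CPM are TMM-scaled, except marker sums and single marker genes of other cells, which are CPM by column total. Correlations used log2 CPM with a prior count of 2. A count of 0 allows up to 3 counts, or 0.129 to 0.149 CPM, for counting error only. No 2 libraries of a group agreed within sampling noise (chi-square per gene at least 23). The script was tested on simulated data. Alternatives were DESeq2 1.42.0, the edgeR likelihood-ratio test, RLE factors, library totals, no filter, the replicate number as a block, the compared libraries alone, limma 3.58.1 on log2(RPKM + 1) and log2(RPKM + 0.1), and leaving out each library. Named are all members, the label checks, at most 4 called genes per pathway list and genotype comparison by size of change (or the 2 with the smallest p), and the 3 genes most correlated with each member called between genotypes. Pim3 is named as the remaining PIM kinase. Hspa1a, Hspa1b, Fosb, Dusp1, Atf3 and Nr4a1 were chosen after their values were seen. So were the single marker genes of other cells, among them Cd22, Cd79b, Nkg7, Eomes, Klrb1c and Itgax. The members and lists were chosen with earlier results of these data known. Some genes that this rule or a list would name, including genes called, are not reported here. Protein sequences were not used here.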

Additional observations from a re-analysis of the deposited data

How the results depend on the processing

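The 17 member results that passed the test were recomputed under 289 alternatives in all: 249 kept direction and call, 40 kept direction only, and 0 changed sign. The number of members called in CD8 T cells between genotypes went from 2 to 4 with the replicate block and to 0 with the compared libraries alone. The latter fit has fewer residual degrees of freedom, and the cause of the former change was not tested. Leaving out each library in turn gave 1 to 5 members called between genotypes in CD4 and 0 to 2 in CD8 T cells, 0 to 0 for the difference of effects, 4 to 6 between cell types in WT and 2 to 5 in STAT3KO, where an arm of 1 library was assumed to vary like the other groups. With library totals the Socs6 value in CD8 T cells was -0.0336, and without a filter the Socs5 difference of effects was 0.00517.

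Uncalled values that changed sign when a library was left out ranged, for STAT3KO against WT in CD4 T cells, from -0.051 to 0.138 (Socs4) and -0.00626 to 0.456 (Cish); in CD8 T cells, from -0.185 to 0.24 (Socs6) and -0.14 to 0.212 (Cish). For the difference of effects they ranged from -0.0697 to 0.496 (Socs3), -0.037 to 0.152 (Socs4), -0.198 to 0.158 (Socs5), -0.116 to 0.151 (Socs7), -0.408 to 0.0546 (Cish) and -0.000501 to 0.26 (Pim2), and for CD8 against CD4 in STAT3KO from -0.169 to 0.129 (Socs6) and -0.375 to 0.0248 (Pim1). Rnf7 in CD4 T cells ranged from -0.481 to 0.0666.

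Libraries of the 4 groups share replicate numbers, and the replicate deviations of the groups correlated across genes (r 0.42 to 0.67), but nothing in the labels says what a number marks. With the replicate number as a block, 5, 4, 0, 7 and 7 members were called in the 5 comparisons, against 5, 2, 0, 5 and 5 without it, and genes called between genotypes rose from 1444 to 3747 in CD4 and from 257 to 2258 in CD8 T cells. Genes called in CD8 T cells numbered 885 with DESeq2, 815 with the likelihood-ratio test, 454 without a filter, 20 with the compared libraries alone and 7 to 241 with a library left out; in CD4 T cells they numbered 950 with the compared libraries alone and 412 at the fewest with a library left out. For the difference of effects, 0 genes became 190 with DESeq2, 137 with the likelihood-ratio test, 44 without a filter, 403 with the block and 13 with log2(RPKM + 1). Between cell types, the block took 2960 genes to 5232 in WT and 1555 to 3689 in STAT3KO, and the fewest with a library left out were 1575 and 457. The lowest count of a member in a library was 64, and each group had 2 libraries.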
